A study of Mus musculus with 38 samples.

Results

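The comparison described here set intestinal organoids of Ppard knockout mice (D) against organoids of wild-type mice (WT), both grown without a PPARδ agonist. Its members were the 5 vehicle libraries whose column names give the D genotype and the 5 vehicle libraries whose names give WT. They make 10 of the 37 libraries with a group. Expression was compared across 4902 genes. The labels write the Ppard genotype of D as floxed and name no recombinase, so they do not say in which cells or when the gene would be lost. The strain label is C57BL6 for both groups. Crypts of both genotypes were set in 65% matrigel and kept with 0.1% DMSO as the vehicle for 8 days. Polyadenylated RNA was then profiled from the 3′ ends of transcripts. The series also holds organoids grown with 1 uM GW501516 (GW), a synthetic PPARδ agonist, and organoids of Ppara-null mice (A) and of mice with both altered genes (DA). From these, 3 GW libraries of D with 5 of WT, 4 vehicle libraries of DA with 5 of A, and 5 GW libraries each of DA and A serve below to set the vehicle comparison beside others. Nothing in the labels says that the libraries of a group came from separate animals or cultures, so p-values measure the spread between libraries, which may be technical.

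PPARδ, the product of Ppard, is a nuclear receptor for fatty acids. It pairs with a retinoid X receptor on DNA elements built as a direct repeat. With a ligand bound it turns on genes of fatty acid transport and oxidation, and without one it can recruit corepressors. In the intestine, its activation by agonists or dietary fat is known for raising fatty acid oxidation and crypt stem cell activity. PPARα, the product of Ppara, shares many of its target genes.

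Library totals were 353347 to 577557 counts in D and 444465 to 528776 counts in WT, and transcripts of the mitochondrial genome made up 7.90% to 10.2%. Column names carry a library number, and numbers 1 to 36 stood apart from numbers 37 to 60 on the leading principal component, which held 13.0% of the variance over all 37 libraries. Both genotypes had 3 libraries in the lower run and 2 in the higher. Counts of Xist, which is made from an inactive X chromosome, were above those of Y-linked genes in 3 of the 5 D libraries and in 2 of the 5 WT libraries. Neighbouring numbers therefore did not always hold the same sex. Of the D and WT libraries, those numbered 37 to 60 had 0 Xist counts. Those numbered 1 to 36 had Xist above Y-linked counts, except WT replicate 1. Run and sex could therefore mostly not be told apart.

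The deletion itself could not be checked from these counts. Ppard (chromosome 17, 28232700 to 28301474, mm10) had 1, 1, 1, 2 and 0 counts in the D libraries, against 1, 0, 1, 0 and 2 counts in the WT libraries. The groups overlap, and a tag from the 3′ end need not lie in the deleted part of the gene. Rxra, which encodes the partner receptor RXRα, had 7 counts in all D libraries together and 9 in all WT libraries. Neither gene passed the filter on low counts.

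The other PPAR genes showed no difference that passed. Ppara had a median of 11.9 CPM (counts scaled to 1e+06 per library, with TMM factors) in D, within 3.31 to 16.4, against a median of 18.6 CPM in WT, within 8.95 to 23.9. Its log2 fold change, D over WT here and throughout, was -0.67 ± 0.44 (SE), with an interval from -1.57 to 0.22, so a moderately lower level in D was not detectable at this depth. Pparg, the adipogenic and epithelial differentiation receptor, averaged 19.7 ± 4.82 CPM in D and 21.6 ± 8.33 CPM in WT (SD, n = 5 each).

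Very few genes separated the genotypes. By edgeR's quasi-likelihood test, Benjamini-Hochberg adjusted over all genes, 2 of 4902 genes passed an adjusted p of 0.05, or 0.0408%. Both, the pseudogene Gm28438 and the MHC class I gene H2-Bl, were higher in D, and none was lower. At an unadjusted p below 0.05 there were 170 genes (3.47%), 75 of them higher and 95 lower. DESeq2 also called 2 genes, H2-Bl and 2310061I04Rik, and had 121 genes at an unadjusted p below 0.05. Over all genes 2497 (50.9%) were higher in D, and the median log2 fold change was 0.01.

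**Figure D1:**
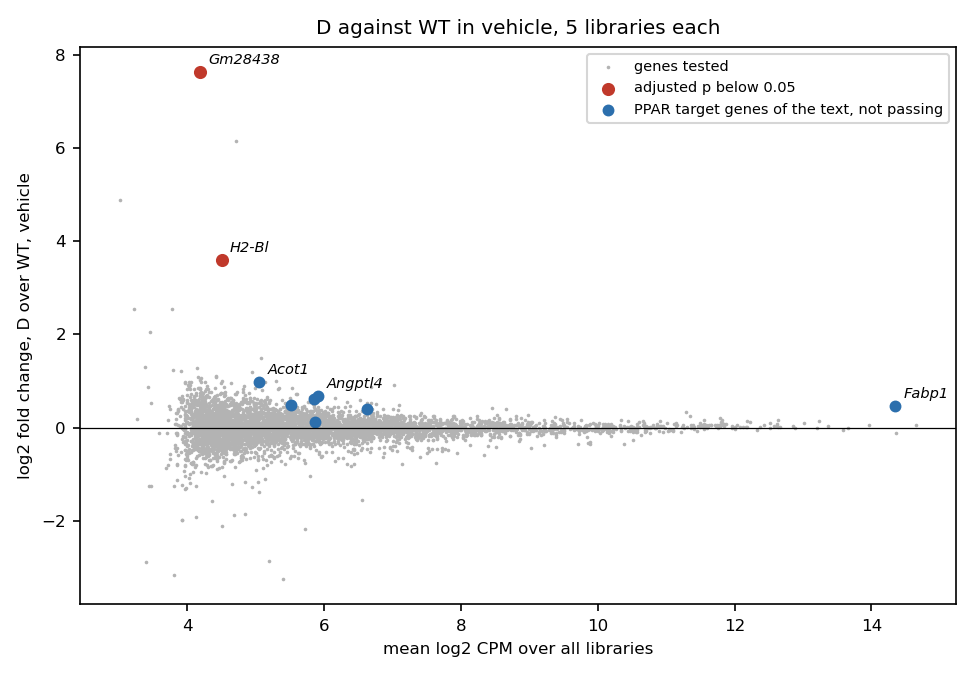
Log2 fold change of D over WT in vehicle (vertical axis) against the mean log2 CPM over all libraries (horizontal axis), with 1 point for each of the 4902 genes tested. Red points are the 2 genes that passed, H2-Bl at 3.59 and Gm28438, whose plotted 7.62 is set by the fit because it had 0 counts in every WT library, and blue points are PPAR target genes named in the text, none of which passed.

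Precision depended on abundance. The median SE of a log2 fold change was 0.27. The 95% interval of the difference lay wholly within a factor of 2 in either direction for 3785 genes (77.2%), which was the case for 97.7% of the genes whose mean log2 CPM reached 7 and for 51.2% of those under 5. These intervals are not adjusted for the number of genes.

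Gm28438 was detected in every D library and in none of WT. This pseudogene (chromosome 1, 24612775 to 24613119, minus strand) is annotated as unprocessed and nearly matches the mitochondrial gene mt-Nd3, which encodes a subunit of respiratory complex I. Over the 345 bases of Gm28438 the copies differ at 1 base, T3C, counted from the first base of mt-Nd3, at mitochondrial position 9461. The transcript of mt-Nd3 also runs 3 bases longer at its end. The first 60 bases of each, from the GENCODE transcripts, are given to show the substitution, which is in capitals. The tags come from 3′ ends, and whether any read covered either difference was not measured.
mt-Nd3: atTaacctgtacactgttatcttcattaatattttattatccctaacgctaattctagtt
Gm28438: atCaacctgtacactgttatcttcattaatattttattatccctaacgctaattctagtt
Gm28438 had 38, 16, 41, 14 and 13 counts in the D libraries, against 0 in each of the 5 WT libraries. Against a floor of 3 counts over the WT group, its level was at least 40.6-fold higher in D, with an adjusted p of 0.000111 by edgeR's quasi-likelihood test, Benjamini-Hochberg adjusted. DESeq2 gave an adjusted p of 0.0676. The adjusted p was 0.000308 within libraries 1 to 36 and 0.767 within libraries 37 to 60, where each group had 2 libraries.

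Which copy the reads came from cannot be settled from counts of near-identical genes. Of the counts of Gm28438 and mt-Nd3 together, Gm28438 took 13.1%, 6.75%, 11.7%, 9.09% and 8.07% in the 5 D libraries. The exact binomial intervals of these shares lay between 3.91% and 17.5%, and they cover counting error only. In the WT libraries the share was 0%, with upper bounds of 1.57% to 3.05%. mt-Nd3 itself had 253, 221, 309, 140 and 148 counts in D, against 167, 233, 205, 119 and 121 counts in WT. These groups overlap, and its log2 fold change of 0.40 ± 0.30 did not pass. None of the 13 mitochondrially encoded transcripts passed, and their median log2 fold change was 0.04.

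The same split was seen with the agonist, while most libraries of Ppara-null organoids had 0 counts. Under GW, Gm28438 had 37, 39 and 23 counts in D, against 0, 0, 2, 0 and 2 counts in WT, with an adjusted p of 0.000235 by edgeR's quasi-likelihood test, Benjamini-Hochberg adjusted. In vehicle it had 0 counts in all 4 DA libraries, against 0, 0, 0, 2 and 0 counts in A. Under GW it had 0, 0, 0, 6 and 0 counts in DA, against 0 in all 5 libraries of A. The 6 counts in DA replicate 4 were 4.17% of those of Gm28438 and mt-Nd3 together, with an exact binomial interval from 1.54% to 8.85% that overlaps that of D replicate 2 in vehicle, 3.91% to 10.7%. In vehicle, the difference of the Ppard effect between the Ppara backgrounds had an unadjusted p of 0.00355 and an adjusted p of 1 by the same test.

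H2-Bl, an MHC class I gene that the annotation lists as a polymorphic pseudogene, was the second gene that passed. It lies on chromosome 17 (36080115 to 36084223, minus strand), 7.85 Mb from Ppard. It had 17, 16, 19, 20 and 18 counts in the D libraries, against 1, 4, 1, 0 and 1 counts in the WT libraries. The groups do not overlap, with 32.6 to 53 CPM in D and 0 to 8.63 CPM in WT. The log2 fold change was 3.59 ± 0.66, with an adjusted p of 0.00861 by edgeR's quasi-likelihood test, Benjamini-Hochberg adjusted. Without WT replicate 2, which held 4 of the 7 WT counts, the log2 fold change was 4.39. The call was lost without WT replicate 3, 4 or 5, with adjusted p of 0.0512, 0.0607 and 0.0653, and in a fit of the 4 vehicle groups, with 0.0673.

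The difference in H2-Bl was present in both runs of library numbers. The log2 fold change was 3.15 within libraries 1 to 36, with an adjusted p of 0.00294, and 4.84 within libraries 37 to 60, with an adjusted p of 0.144 from 2 libraries in each group. Under GW, H2-Bl had 18, 12 and 11 counts in D, against 0, 0, 0, 1 and 2 counts in WT. That difference of 4.41 ± 0.87 passed with an adjusted p of 0.0184 by edgeR's quasi-likelihood test, Benjamini-Hochberg adjusted. The difference between treatments, GW minus vehicle, was 0.82 ± 1.30, with an interval from -1.82 to 3.46.

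None of the other MHC class I genes tested passed. The H2-Bl transcript matches that of H2-D1, a classical class I gene, at 90.3% of 998 aligned bases. It also matches those of Gm8909, at 89.8% of 1015 aligned bases, and H2-Q7, at 89.6% of 988. Whether reads were shared among these genes was not measured, so the count of each is uncertain. H2-D1 averaged 118.4 ± 12 CPM in D and 118.4 ± 6.59 CPM in WT (SD, n = 5 each), with a log2 fold change of 0.01 and an interval from -0.28 to 0.30. H2-K1, the other classical gene measured, had 0.05 ± 0.17. H2-T23, a non-classical class I gene, had -0.45 ± 0.31. Of the 16 genes listed for antigen presentation 6 were tested, and H2-Bl was the sole one to pass, against 0.0408% of all genes. The list median was 0.03 against 0.01 over all genes. The list held the only call among all gene lists examined.

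**Figure D2:**
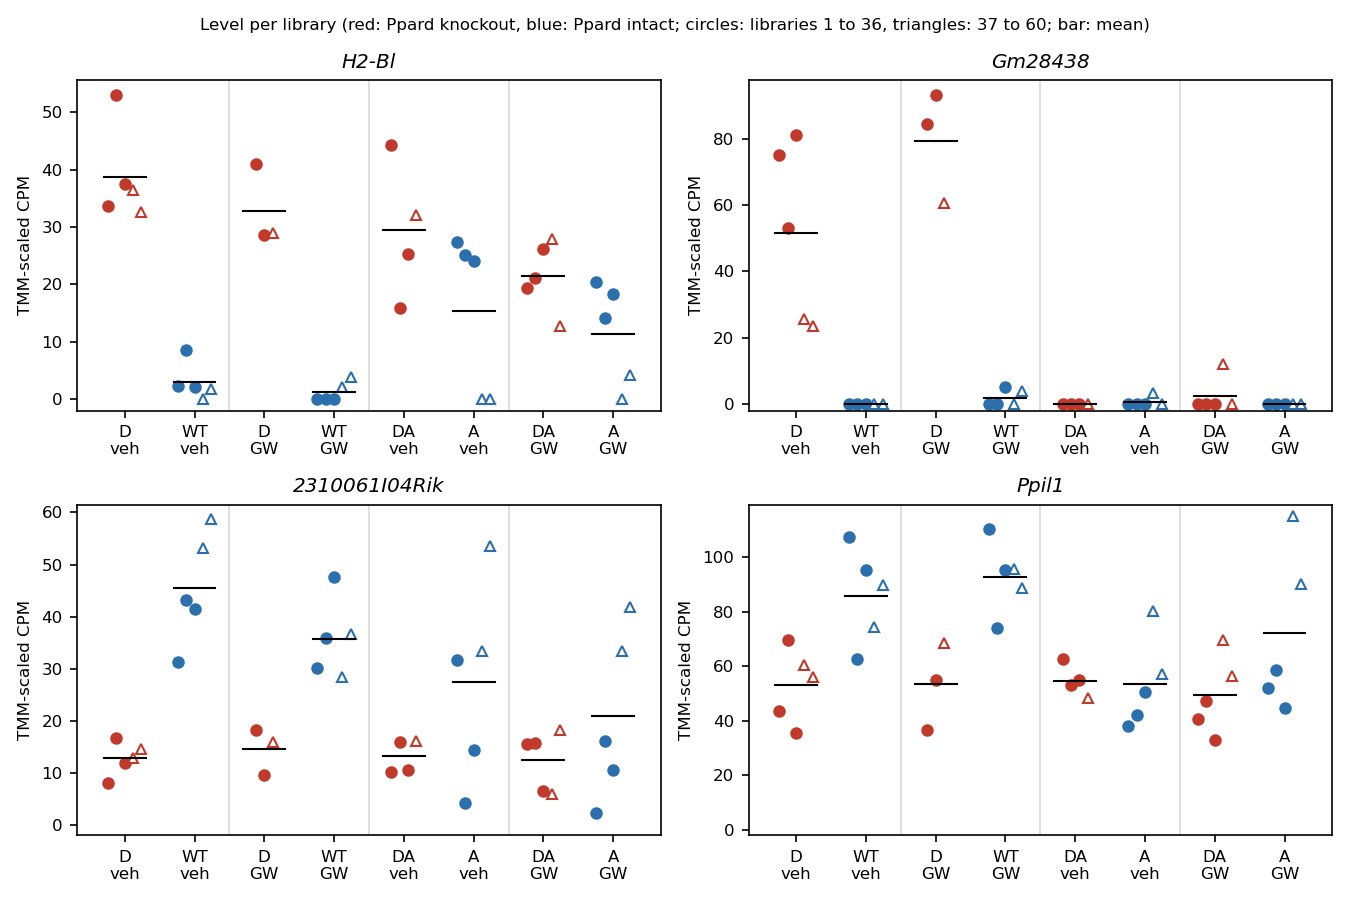
TMM-scaled CPM of 4 transcripts in each library of the 8 groups (veh, vehicle; GW, GW501516), with black bars at the group means. Red symbols carry the Ppard knockout and blue symbols do not, circles are libraries numbered 1 to 36 and triangles those numbered 37 to 60. H2-Bl ran from 32.6 to 53 in vehicle D and from 0 to 8.63 in vehicle WT, and in A the circles and triangles stand apart.

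2310061I04Rik, an uncharacterised protein-coding gene near H2-Bl, was the third gene by p and missed the threshold. It is named after its values were seen. It lies on chromosome 17 (35892677 to 35897431), 7.66 Mb from Ppard. It had 4, 5, 6, 7 and 8 counts in D, against 14, 20, 20, 25 and 32 counts in WT, and the groups do not overlap. Its log2 fold change was -1.85 ± 0.41, with an adjusted p of 0.105 by edgeR's quasi-likelihood test, Benjamini-Hochberg adjusted. The adjusted p was 0.0116 with a replicate block for sets of neighbouring library numbers, 0.00182 when only the 10 libraries were fitted and 0.0476 by DESeq2. It was 0.342 by limma-trend and 0.0757 to 0.47 with each of the 10 libraries left out. Over all alternatives it ran from 1.88e-05 without a filter on low counts to 0.895 within libraries 1 to 36. Under GW it had 8, 4 and 6 counts in D, against 15, 15, 19, 13 and 19 counts in WT.

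Several genes on chromosome 17 near Ppard deviated, and this window was chosen after their values were seen. Of 117 tested genes within 10 Mb of Ppard, 4 did not overlap between D and WT (3.42%), against 0.959% of all genes tested. The 4 were H2-Bl and 2310061I04Rik with Stub1 and Ppp1r11. Farther away on the chromosome 0 of 120 did not overlap, and on other chromosomes 43 of 4665 (0.922%). An unadjusted p below 0.05 was reached by 10 genes in the window (8.55%), against 3.34% on other chromosomes. Under GW it was reached by 5 in the window (4.27%), near the 3.41% on other chromosomes and the 5.0% elsewhere on chromosome 17. For 4 of the 117 (3.42%) it was reached in both treatments with the same direction, against 6 of 4665 (0.129%) on other chromosomes.

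Of the 10 window genes with an unadjusted p below 0.05, the nearest to Ppard, Ppil1, Decr2 and Stub1, did not have the largest differences. Decr2 at -2.15 Mb had -0.58 ± 0.23, and Stub1 at -2.4 Mb had -0.64 ± 0.22. Tff1, next at 2.93 Mb, had -1.91 ± 0.78, and none of these passed. Ppil1, a peptidyl-prolyl isomerase of the spliceosome that lies 1.02 Mb away, had 22, 21, 18, 33 and 31 counts in D, against 48, 29, 46, 35 and 49 counts in WT. The groups overlap at 69.6 CPM in D and 62.6 CPM in WT, and its log2 fold change of -0.71 ± 0.23 did not pass. H2-T3, a non-classical class I gene 7.95 Mb away that is known from intestinal epithelium, had -1.24 ± 0.57 and did not pass. Gtf2h4, a subunit of the transcription and repair factor TFIIH 7.44 Mb away, had -1.29 ± 0.52 and did not pass.

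**Figure D3:**
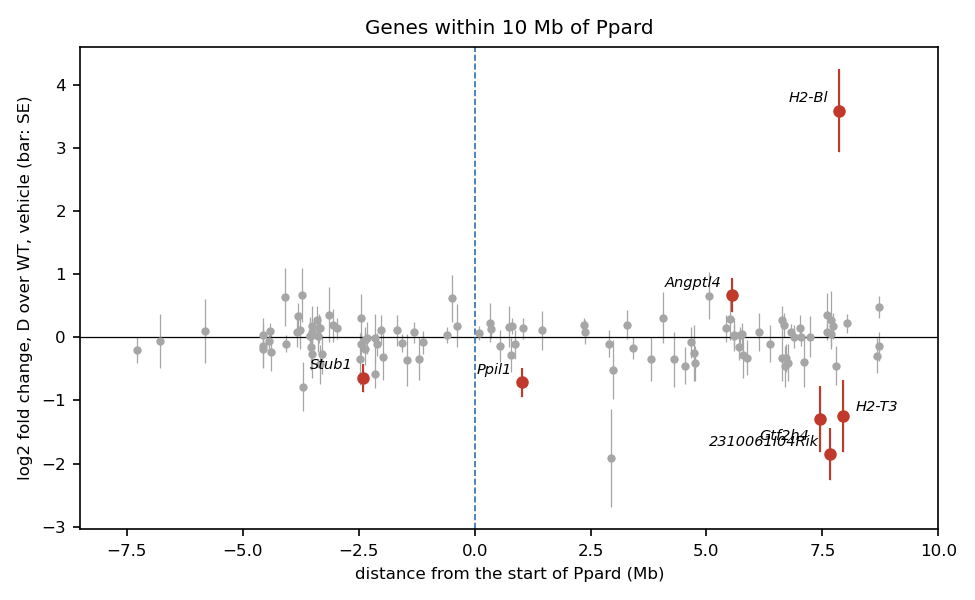
Log2 fold change of D over WT in vehicle (vertical axis, bars are SE) against distance from the start of Ppard in Mb (horizontal axis) for the tested genes within 10 Mb. Named genes are red. H2-Bl stands at 3.59 and 2310061I04Rik at -1.85, 7.85 and 7.66 Mb away.

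For these chromosome 17 genes, libraries of A differed by run of library numbers. Xist had 99, 117 and 72 counts in the lower run of vehicle A, and 0 and 0 in the higher. Run and sex therefore cannot be told apart in the vehicle libraries of A. H2-Bl had 13, 12 and 10 counts in the 3 vehicle A libraries numbered 1 to 36, and 0 and 0 in those numbered 37 to 60. 2310061I04Rik had 15, 2 and 6 counts in the lower run of A, and 20 and 31 in the higher. Ppil1 had 18, 20 and 21 counts in the lower run, and 48 and 33 in the higher. A also carries an intact Ppard by its label, so these transcripts were low or high in libraries of 1 genotype. In DA the 4 vehicle libraries had 22, 9, 12 and 18 counts of H2-Bl, and DA against A gave 1.03 ± 0.53, which did not pass.

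Genes that respond to the PPARδ agonist were examined next. To find them, GW was compared with vehicle in A, where PPARα is missing. Whether they respond through PPARδ was not tested. None of the 10 D and WT vehicle libraries is in that contrast, but the filter, the scaling and the estimate of spread came from the fit of all groups. There 14 genes rose at an adjusted p of 0.05 (0.286%) by edgeR's quasi-likelihood test, Benjamini-Hochberg adjusted. In D against WT without agonist 0 of these 14 passed, 12 were higher, against 50.9% of all genes, and 2 were lower. Their median log2 fold change was 0.35, against 0.01 over all genes. An unadjusted p below 0.05 was reached by 4 of the 14, all of them higher, against 3.47% of all genes in either direction.

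The 4 were Acot1, Angptl4, Abhd6 and Eci2. Acot1, a cytosolic thioesterase that cleaves acyl-CoA, had 11, 4, 14, 7 and 8 counts in D, against 6, 3, 2, 3 and 8 counts in WT. Its log2 fold change was 0.98 ± 0.40, and the groups overlap. Angptl4, a secreted inhibitor of lipoprotein lipase and a standard PPARδ target, had 27.7, 29.8, 51.4, 36.5 and 47.0 CPM in D, against 29.1, 19.4, 16.6, 23.4 and 33.0 CPM in WT. Its log2 fold change was 0.67 ± 0.27, with an unadjusted p of 0.0168, and the groups overlap. Angptl4 also lies on chromosome 17, 5.54 Mb from Ppard, and is 1 of the 10 genes in that window with an unadjusted p below 0.05. Whether its position bears on its value was not tested. Abhd6, a monoacylglycerol lipase, had 0.44 ± 0.21, and Eci2, an isomerase that prepares unsaturated fatty acids for oxidation, had 0.39 ± 0.18.

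Fabp1, the liver-type fatty acid binding protein and the most abundant of the 14, varied too much between D libraries to be placed. It had 18761, 30265, 39115, 16774 and 12417 CPM in D, against 13417, 22313, 18342, 14792 and 16676 CPM in WT. Replicates 2 and 3 of D were high, the lowest library of all was also D, and the log2 fold change was 0.46 ± 0.28. It was -0.10 within libraries 37 to 60. The other 13 genes summed to 1051 to 1272 CPM in D, with a median of 1217 CPM, and to 944 to 1145 CPM in WT, with a median of 1010, so the sums overlap too.

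Fabp1 also has a promoter match to the PPAR element. The motif, AGGTCA and AGGTCA with N between them, was searched on both strands with up to 2 mismatches, N not counted, in windows of 300 bases around RefSeq starts (GRCm38.p6). It was found for 2 of the 11 genes of the set with a promoter (18.2%), Fabp1 and Slc25a20. Of all 27025 genes with a promoter 4.4% had a match in any of their promoters, and of the 3789 tested genes with a promoter 4.46%. The match upstream of Fabp1, with 1 mismatch on the minus strand, is in capitals below in the stretch chr6:71199759-71199826, plus strand.
Fabp1: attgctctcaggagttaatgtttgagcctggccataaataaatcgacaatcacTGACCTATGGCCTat
Among genes with an unadjusted p below 0.05 in D against WT the motif was found for 5 of 114 (4.39%). A match describes the letters and does not show that a receptor binds there.

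Under the agonist the same 14 genes lay on the other side. In D against WT under GW, 14 of the 14 were lower, against 2452 of all 4902, with a median log2 fold change of -0.34 against 0.00 over all genes, and 1 of them passed. Over all genes 3 passed under GW (0.0612%), 2 higher and 1 lower (0.0204%). The GW and vehicle comparisons share no library with each other or with those of A. The difference of the genotype effect, GW minus vehicle, was negative for 14 of 14, against 50.4% of all genes. Its unadjusted p was below 0.05 for 7 of the 14, against 3.22% of all genes, and its adjusted p was below 0.05 for none of the 4902. With a block for run or a term for Xist above Y-linked counts, 12 of 14 were lower under GW. With any one GW library of D or WT left out, 12 to 14 were lower. With the lower run alone 11 of 14 were lower under GW. With the higher run alone 14 were lower, but there replicate 3 was the only GW library of D. For Acot1 the difference between treatments was -1.70 ± 0.52, for Angptl4 -0.93 ± 0.36 and for Abhd6 -0.85 ± 0.30.

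The levels show both sides of that difference. Angptl4 averaged 38.5 ± 10.4 CPM in D and 24.3 ± 6.78 CPM in WT in vehicle (SD, n = 5 each). Under GW it averaged 78.8 ± 32.3 CPM in D (n = 3) and 94.9 ± 21.5 CPM in WT (n = 5). Acot1 averaged 18 ± 6.52 CPM in D and 9.02 ± 4.71 CPM in WT in vehicle, and under GW 38.7 ± 13.5 CPM in D and 63.9 ± 23.6 CPM in WT. Means were thus higher under GW than in vehicle in both genotypes.

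The vehicle direction of the 14 genes was weaker in the higher run of library numbers. Within libraries 1 to 36, 13 of 14 were higher in D with a median of 0.48, and within libraries 37 to 60, 10 of 14 with a median of 0.18. With any one of the 10 libraries left out, 11 to 13 of the 14 were higher.

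**Figure D4:**
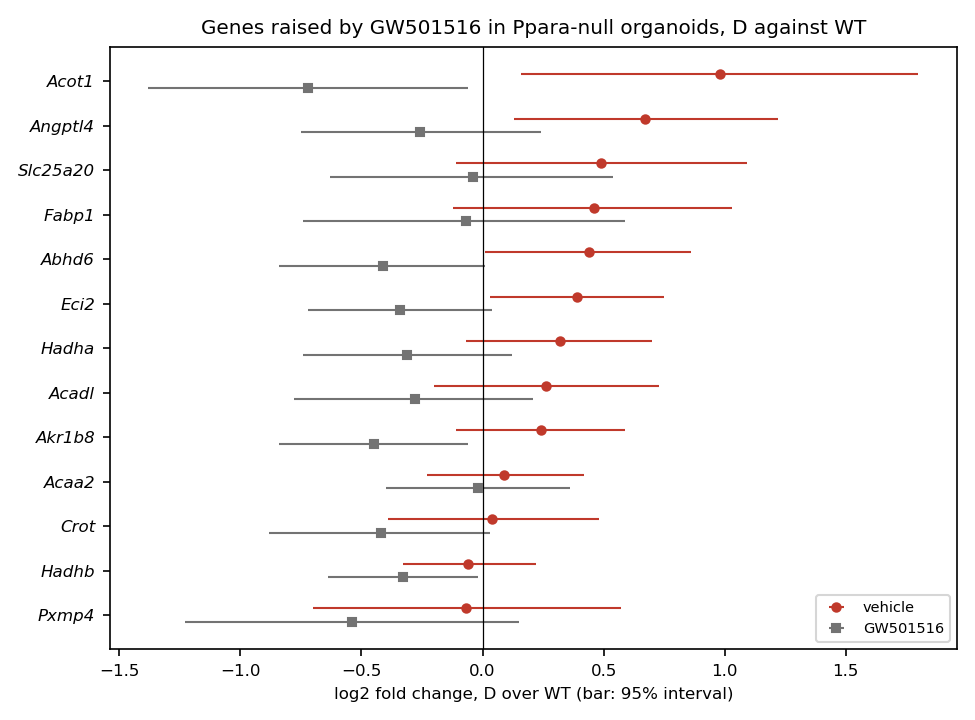
Log2 fold change of D over WT with its 95% interval (horizontal axis) for 13 of the 14 genes that GW raised in A, in vehicle (red circles) and under GW (grey squares). Vehicle values lie above 0 for all but Hadhb and Pxmp4, from -0.07 to 0.98, and GW values lie below 0 for all.

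In mitochondrial fatty acid oxidation more genes were higher than lower in D, with small values and no call. Of 18 listed genes 17 were tested, 13 were higher in D, 0 passed and the median log2 fold change was 0.14. Acadvl, the dehydrogenase for very long chains, had 63.3, 59.6, 53.4, 84.0 and 59.7 CPM in D, against 29.1, 34.5, 35.2, 57.4 and 53.2 CPM in WT. Most D libraries lie above the WT ones, with overlap at the top of WT, and the value was 0.61 ± 0.22 with an unadjusted p of 0.00751. Cpt1a, the gatekeeper of mitochondrial import, had 0.14 ± 0.30, and Slc25a20, the carnitine carrier, had 0.49 ± 0.29. Hadha and Hadhb, the subunits of the trifunctional protein, had 0.32 ± 0.19 and -0.06 ± 0.14, Acadl had 0.26 ± 0.23 and Acaa2, the last thiolase, 0.09 ± 0.16. Within libraries 37 to 60, 9 of the 17 were higher, with a median of 0.03.

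Other lipid pathways gave no call, with list medians between -0.05 and 0.17. The highest median was that of PPAR targets outside oxidation, Angptl4 and Acot1 included, where 5 of 7 tested genes were higher. Of 14 tested peroxisomal genes 6 were higher, with a median of -0.05, and Decr2, the peroxisomal dienoyl reductase on chromosome 17, had -0.58 ± 0.23. Of 7 genes for uptake, binding and activation of fatty acids 5 were higher, with a median of 0.14, and Fabp2, the intestinal binding protein, had 0.01 ± 0.19. Plin2, which coats lipid droplets, had 0.12 ± 0.30, and Creb3l3, a transcription factor of triglyceride metabolism, had 0.17 ± 0.32. Of 9 fatty acid synthesis genes 6 were higher, with a median of 0.14, and Me1, the malic enzyme, had 0.23 ± 0.48. Of 11 chylomicron and lipid droplet genes 6 were higher, with a median of 0.00. Of 22 cholesterol synthesis genes 12 were higher, with a median of 0.01. In that list Mvd, a decarboxylase of the mevalonate pathway, had the smallest p, with 0.77 ± 0.27. None of these genes passed. Pdk4, a kinase that shuts pyruvate out of oxidation and a known PPARδ target, had 2 counts in all D libraries and 0 in all WT libraries.

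Energy and stress programmes showed no call. Of 12 glycolytic genes 10 were higher, with a median of 0.12, and of 78 nuclear genes of oxidative phosphorylation 44 were higher, with a median of 0.01. Of 77 cytoplasmic ribosomal protein genes 65 were higher, with a median of only 0.04. Of 8 tested hypoxia genes all 8 were higher in D, with a median of 0.40 and none at an unadjusted p below 0.05. Among them Car9, a carbonic anhydrase, had 0.44 ± 0.26 and Bnip3, a mitophagy receptor, 0.84 ± 0.61. Of 20 xenobiotic enzymes 4 were higher, with a median of -0.06. Oxidative stress genes had 6 of 14 higher, and those of the unfolded protein response 3 of 9.

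None of the cell type markers tested passed. Olfm4, a marker of crypt base cells, averaged 88.2 ± 32.4 CPM in D and 76.9 ± 22.7 CPM in WT (SD, n = 5 each). Lgr5, the stem cell receptor for R-spondins, had 8 counts in all D libraries and 3 in all WT libraries, too few to test. Of 8 tested stem cell markers 3 were higher, with a median of -0.08, and the 19 listed genes summed to 324 to 491 CPM in D and to 354 to 506 CPM in WT. In bulk RNA, fewer cells of a type and less RNA per cell cannot be told apart. Alpi, the brush border phosphatase of enterocytes, averaged 171 ± 18.4 CPM in D and 190 ± 39.3 CPM in WT, and Lyz1, the Paneth cell lysozyme, 1597 ± 244 CPM in D and 1642 ± 510 CPM in WT.

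Markers of proliferation and of the secretory lineages gave no call either. Mki67, a marker of cycling cells, had 35.6 to 49.3 CPM in D, against 51.0 to 64.2 CPM in WT. These groups do not overlap, but its log2 fold change of -0.31 ± 0.22 had an unadjusted p of 0.162, and 10 of 22 proliferation genes were higher, with a median of -0.04. Of 16 enterocyte markers 6 were higher, with a median of -0.06, of 11 Paneth markers 3, with a median of -0.09, and of 7 goblet markers 5, with a median of 0.07. Muc2, the goblet cell mucin, had 8 counts in all D libraries and 5 in all WT libraries. Tuft cell markers had 4 counts over 8 genes in D and 3 in WT, with Dclk1, Trpm5 and Pou2f3 at 0 in both. Immune markers, of which Ptprc, Cd3e and Csf1r were at 0 in both groups, had 6 counts over 11 genes in D and 2 in WT.

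The secretory genes Reg4 and Chgb were among those with the smallest p on the higher side and did not pass. Reg4, a lectin of enteroendocrine and other secretory cells, had 111, 96.1, 125, 71.2 and 90.4 CPM in D, against 60.4, 60.4, 37.3, 38.2 and 64.2 CPM in WT. The groups do not overlap, and the log2 fold change was 0.91 ± 0.31 with an unadjusted p of 0.00612. Under GW its value was -0.62 ± 0.33, and the difference between treatments was -1.54 ± 0.46, with an adjusted p of 1 by edgeR's quasi-likelihood test, Benjamini-Hochberg adjusted. Chgb, a granule protein of enteroendocrine cells, had 27.7 to 57.4 CPM in D, against 17 to 25.7 CPM in WT, with 0.86 ± 0.25. Of 7 enteroendocrine markers tested, Chgb included, 3 were higher and the median was -0.01. Chga, a related granule protein, had 7 counts in all D libraries and 9 in all WT libraries.

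The remaining genes with the smallest p were named by rank and not by list. On the higher side, none passing, were Zfp36l2, an RNA-binding protein of messenger decay (1.08 ± 0.33), and Ckap5, a microtubule polymerase (0.83 ± 0.26). Tdp2, which repairs topoisomerase adducts (1.00 ± 0.31), Mical1, an actin oxidase (1.11 ± 0.36), and Prpf18, a splicing factor (0.95 ± 0.31), followed. Atg4b, a protease of autophagy (0.81 ± 0.28), and Atf6, a sensor of endoplasmic reticulum stress (1.29 ± 0.44), completed that side. On the lower side, Mal2, a protein of apical transport in epithelia, had 27.7, 9.94, 19.8, 20.1 and 10.9 CPM in D, against 47.0, 41.0, 45.6, 31.9 and 31.2 CPM in WT. The groups do not overlap, and its value of -1.10 ± 0.28 had an adjusted p of 0.5 by edgeR's quasi-likelihood test, Benjamini-Hochberg adjusted.

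The other lower genes, none passing, had values between -1.03 and -0.52. They were Bop1, a ribosome biogenesis factor (-1.03 ± 0.33), Surf2 (-0.78 ± 0.25), the lysosomal cobalamin protein Lmbrd1 (-0.63 ± 0.20) and Eif2b2, a subunit of the translation factor eIF2B (-0.76 ± 0.25). Med11 of the Mediator complex (-0.71 ± 0.24), the proteasome assembly factor Psmd9 (-0.88 ± 0.30), the ubiquitin ligase Stub1 (-0.64 ± 0.22) and the lipid phosphatase Plpp2 (-0.52 ± 0.18) followed.

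**Figure D5:**
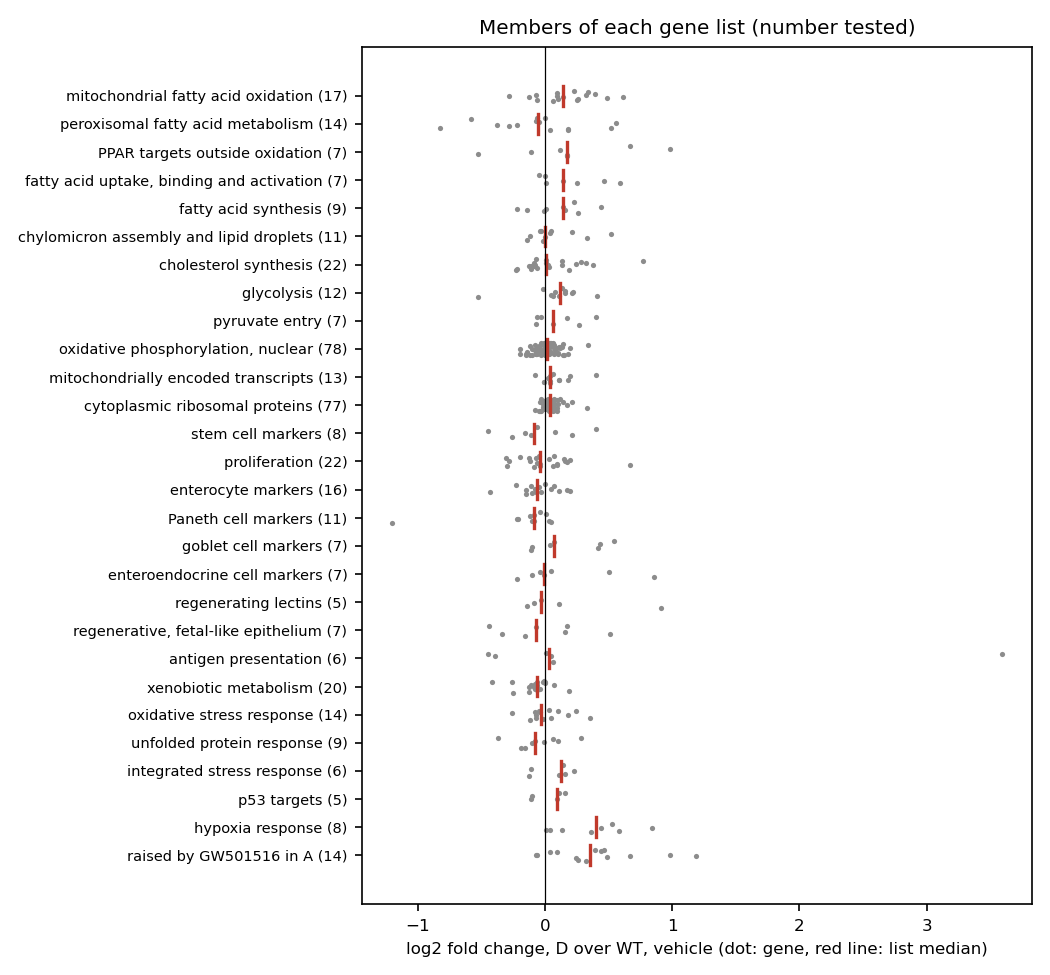
Log2 fold change of D over WT in vehicle (horizontal axis) for the members of each gene list with at least 5 tested genes (vertical axis, number tested in brackets). Grey dots are genes and red lines are list medians. Medians lie between -0.09 and 0.40, and the dot at 3.59 is H2-Bl.

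Only a few transcripts kept the groups apart in both treatments. In vehicle 47 genes did not overlap between D and WT, 21 higher in D (0.428%) and 26 lower (0.53%). Of the 47, 2 higher and 3 lower genes also did not overlap in the same direction under GW, where 0.898% of all genes did not overlap and were higher and 1.43% were lower. The higher ones were H2-Bl and Gm28438, and the lower ones 2310061I04Rik and the predicted genes Gm43305 and Gm42428, named after their values were seen. Gm43305 had 17, 10, 16, 31 and 25 counts in D, against 56, 54, 51, 73 and 56 counts in WT, with a log2 fold change of -1.56 ± 0.59. Gm42031, a predicted non-coding transcript on chromosome 8, had 3, 4, 0, 20 and 10 counts in D, against 42, 26, 34, 39 and 26 counts in WT, and -2.18 ± 0.80. In vehicle libraries of A it had 7, 4 and 0 counts in the lower run of library numbers and 121 and 106 in the higher.

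The Ppard knockout was also set against its control without Ppara. In vehicle, DA against A gave 0 genes at an adjusted p of 0.05 by edgeR's quasi-likelihood test and 160 at an unadjusted p below 0.05, and DESeq2 called 1. The difference of the Ppard effect, Ppara-null minus Ppara wild type, was called for 0 genes, with 146 (2.98%) at an unadjusted p below 0.05, 0 by DESeq2 and 1 by limma-trend. Reg4 had 0.73 ± 0.30 in DA against A, in the direction of D against WT, and neither value passed. Of the other genes named on the higher side, Chgb had -0.02 ± 0.26, Zfp36l2 -0.13 ± 0.33 and Mical1 -0.05 ± 0.37. Ckap5, Tdp2, Prpf18, Atg4b and Atf6 had values from 0.14 to 0.49. Of transcripts lower in D, 2310061I04Rik had -1.08 ± 0.45, H2-T3 -1.71 ± 0.63, Gm43305 -1.61 ± 0.62 and Gm42031 -2.62 ± 0.84, none passing. For 2310061I04Rik and Gm42031, counts in A differed by run, as given above. Bop1, Surf2, Med11 and Stub1 had values from -0.59 to -0.16, Mal2 had -0.08, and Lmbrd1, Eif2b2, Psmd9 and Plpp2 had 0.04 to 0.13. These 9 libraries are none of the 10 of D and WT.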

How the data were processed

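A table of counts (whole numbers, by Ensembl gene) and one of log2 values were deposited by the authors, each with 57 columns, of which 37 were used. The deposited log2 values, back-transformed, lay within 1.472 counts of the count table and were not tested. Salmon 1.1.0, R 3.6.2, edgeR 3.26.8 and mm10 were used per the submitters' processing notes, and the handling of molecular identifiers is not given in the sources used here. Columns were assigned to groups by treatment and genotype in their names. The 20 left out were 19 with the letters KD and 1 of 4 named GW in D, among which the sample with an unclear genotype cannot be told apart. Replicates are numbered in column order. Symbols, positions and transcripts came from GENCODE, in which 54179 of 54352 identifiers had a symbol, and promoters from RefSeq. Similar transcripts were found with blastn 2.17.0.

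Genes were filtered with filterByExpr over 8 groups, scaled by TMM and fitted in 1 model with edgeR 4.0.16 (glmQLFit, glmQLFTest) under R 4.3.3, which was first tested on simulated data. The adjusted p-value is Benjamini-Hochberg over all genes tested. DESeq2 1.42.0, limma 3.58.1 and other filters, scalings and sets of libraries were alternatives. Groups were called not overlapping on TMM-scaled CPM. The text names the PPAR genes, genes that passed, the smallest p-values up to 10 a side, and fixed target and marker genes. Members and lists were chosen with earlier results of these data known. A gene that is counted is not reported here.

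No libraries of a group were copies, since counts differed by 1.51 to 7.10 chi-square per degree of freedom. Libraries of D and WT with neighbouring numbers in their column names deviated together: the correlation of their deviations from the group means was 0.128 to 0.301 in the 5 pairs. In the other pairs it was -0.249 to 0.174, and 3 of these, each within 1 run of numbers, were above 0.128. A replicate block for the neighbouring sets was added after the data were seen.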

Additional observations from a re-analysis of the deposited data

Results flagged for a closer look

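For 10 of 128 gene and group pairs checked, 1 library lay far from the other 4, which chance alone would give for about 1 in 20 groups. H2-Bl was at 53 CPM in D replicate 2 and at 8.63 CPM in WT replicate 2, each the highest of its group. The same WT library was highest for Fabp2, at 3960 CPM against 2630 for the next, and for Lgr5, at 6.47 CPM with the others at 0. D replicate 2 was highest for Pdk4, at 6.63 CPM from 2 counts with the others at 0. D replicate 1 was highest for Lyz1, at 2010 CPM, and D replicate 3 was lowest for Med11, at 11.9 CPM. WT replicate 3 was highest for Mki67, at 64.2 CPM, and for Gtf2h4, at 26.9 CPM. WT replicate 1 was lowest for Tdp2, at 2.24 CPM.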

How the results depend on the processing

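The count of genes called in D against WT in vehicle was 2 and stayed within 1.5 times of that with RLE size factors, DESeq2, limma-trend, a stricter filter, the run block and the Xist term. It was 18 without a filter on low counts, 4 with only the D and WT vehicle libraries, 1 with the 4 vehicle groups, 4 within libraries 1 to 36, 0 within libraries 37 to 60, and 1 to 2 with each of its own 10 libraries left out, where WT replicates 3, 4 and 5 each gave 1. Left out of the shared fit, vehicle replicate 2 or 5 or GW replicate 1 of A each gave 3, the third being 2310061I04Rik. The other libraries of other groups that were left out each gave 2. Those of DA under GW were not left out one at a time. The ranges that follow also leave out only libraries of the groups compared. Under GW it was 3, with 17 without the filter and 1 to 3 with each library left out, the 1 without D replicate 2. Libraries 37 to 60 held only replicate 3 of D under GW, so no count within them is given. DA against A had 0 calls, 1 by DESeq2, 20 without the filter, and 0 to 2 with each library left out, the 2 without DA replicate 2. Libraries 37 to 60 held only replicate 4 of DA in vehicle, so no count within them is given for contrasts with vehicle DA. The difference between treatments had 0 calls, 1 by limma-trend and 12 without the filter, and 0 with each library left out. That between Ppara backgrounds had 0, 1 by limma-trend and 7 without the filter, and 0 with each library left out. GW in A had 15, 28 without the filter and 3 within libraries 1 to 36. With each A library left out it had 6 to 15, with 8 without vehicle replicate 1, 9 without vehicle replicate 4 and 6 without GW replicate 5. With each library of other groups left out it had 14 to 16, those of DA under GW not included. The causes were not tested.

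Some values that did not pass changed sign, among them Fabp1, at 0.46 over all libraries. Within libraries 1 to 36, log2 fold changes were -0.02 for H2-K1, -0.07 for H2-D1, -0.04 for Creb3l3, 0.17 for Pxmp4 and 0.21 for Lyz1. Within libraries 37 to 60 they were -0.57 for Plin2, -0.17 for Cpt1a, -0.10 for Fabp1, -0.22 for Fabp2, -0.20 for Crot and -0.03 for Olfm4. limma-trend gave -0.0031 for H2-D1, -0.0074 for Fabp2 and 0.01 for Lyz1. No filter gave -0.0095 for H2-D1 and -0.02 for Fabp2, the run block -0.0045 for Fabp2, and the Xist term -0.05 for Fabp2 and 0.13 for Lyz1. Without columns of suffix 2, H2-D1 was at -0.0014 and Fabp2 at -0.0013. With the replicate block, Fabp2 was at -0.0029 and Lyz1 at 0.02. With each library left out, ranges were -0.03 to 0.13 for H2-K1, -0.04 to 0.04 for H2-D1, -0.32 to 0.04 for Pparg, -0.02 to 0.37 for Plin2, -0.14 to 0.01 for Hadhb, -0.08 to 0.49 for Me1, -0.17 to 0.17 for Fabp2, -0.05 to 0.19 for Crot, -0.17 to 0.02 for Pxmp4, -0.01 to 0.37 for Olfm4 and -0.19 to 0.08 for Lyz1.

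Columns carry no replicate number of the titles, so a block by title number could not be run. The replicate block for sets of neighbouring library numbers called 3 genes, the third being 2310061I04Rik, and changed no other call of a named gene. Depth limits the comparison: genes under a mean log2 CPM of 5 had a median SE of 0.37, so moderate differences in them could not be seen.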
